A study of Caenorhabditis elegans with 4 samples.

Results

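The response of adult Caenorhabditis elegans to low oxygen was compared gene by gene between 2 RNAi foods, and the quantity described is the difference of those responses. For each gene the response was the log2 ratio of hypoxia to normoxia, computed on RPKM + 1 (RPKM, read number divided by transcript length in kilobases and by the library's mapped reads). The response under control RNAi was then subtracted from that in the labelled elt-2 RNAi libraries, so a positive difference means a ratio that was higher under the elt-2 food. Of 19852 loci in the deposited tables, 7992 were compared. They named a single gene, had no status of failure or of too much or too little data, averaged at least 5 RPKM over the 4 libraries and had no library at 0. Of the other loci, 334 named several genes, 6 had an excluded status, 11504 had a lower mean and 16 had a library at 0.

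All animals were adults of the wild-type strain N2, kept at 20 °C (the labels' temperature) on modified NGM medium for RNAi, and RNA was taken from the whole animal. The control groups ate bacteria with an empty vector, and the other groups ate bacteria for RNAi of elt-2. On each food, synchronized animals at day 1 of adulthood spent 36 h either in normoxia or in a sealed chamber at 0.5% oxygen with nitrogen as the balance, at room temperature. Each of the 4 combinations was 1 library of 100 bp paired-end reads. There were no replicates: no value below has an error, no difference has a test, and a gene is counted as past 2-fold when its difference was 1 or more, or -1 or less.

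Worms sense falling oxygen through EGL-9, a prolyl hydroxylase that marks the transcription factor HIF-1 for destruction while oxygen is present, and many genes of the hypoxia response also act without HIF-1. ELT-2 is a GATA-type transcription factor of the intestine, where it binds the promoters of genes for digestion, defence, metal handling and lipid metabolism. In feeding RNAi, bacteria make double-stranded RNA of a gene, and the worm's own machinery then degrades the matching messenger RNA. The comparison addresses which hypoxia responses differ between animals fed the 2 kinds of bacteria.

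The transcript of the targeted gene did not follow the labels. elt-2 (chromosome X, 10481180 to 10483367, plus strand, ce10) was at 4.81 RPKM in control normoxia and 15.2 in control hypoxia, with 14.3 and 23.8 RPKM for the elt-2 food at the same oxygen levels. It was thus higher, not lower, in the libraries of the elt-2 food at both oxygen levels. Its own hypoxia ratio was 1.48 under control RNAi and 0.70 under the elt-2 label, a difference of -0.78. Those libraries are therefore called labelled elt-2 RNAi throughout. Every difference uses all 4 libraries and cannot be given without them. The other compared GATA factors were within 2-fold, with differences of -0.43 for elt-7, -0.23 for elt-1, -0.09 for elt-3 and 0.12 for egl-27.

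For most genes the hypoxia ratio was much the same on both foods. It was 1 or more for 647 genes (8.1%) under control RNAi and 723 (9.05%) under the elt-2 label, and -1 or less for 258 (3.23%) and 322 (4.03%). The median difference over the 7992 genes was 0.02, the middle 50% of genes lay between -0.12 and 0.17, and 90% lay between -0.58 and 0.54. The difference was above 0 for 4383 genes and below 0 for 3609. Counts by sign in the gene lists below stand beside these. The difference was past 2-fold for 298 genes (3.73%), at 1 or more for 1.49% of all genes and at -1 or less for 179 genes (2.24%). It was past 4-fold each way for 18 (0.225%) and 33 genes (0.413%). The counted genes nearest the threshold had differences of 1.006 and -1.002, and the nearest genes not counted had 0.994 and -0.998. By mean level, 6.37% of genes at 5 to 10 RPKM were counted, 5.43% at 10 to 20, 3.46% at 20 to 50, 2.11% at 50 to 200 and 3.68% at 200 RPKM or more. Since no library has a replicate, this spread cannot be told apart from measurement error.

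**Figure D1:**
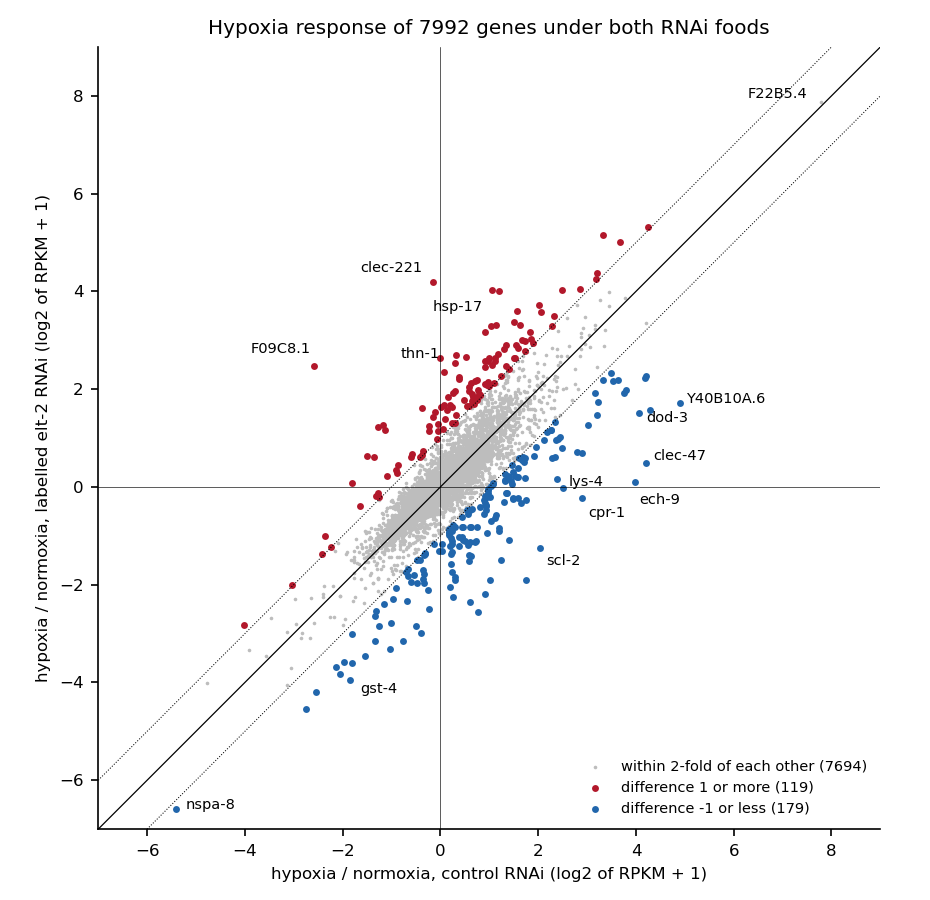
Hypoxia response of the 7992 compared genes, as log2 of RPKM + 1 in hypoxia over normoxia, under control RNAi (horizontal axis) and in the labelled elt-2 RNAi libraries (vertical axis). Each point is 1 gene, the solid diagonal marks equal responses and the dotted lines a 2-fold difference. Genes above the upper line are red, the 179 below the lower line are blue, and most genes lie along the diagonal, F22B5.4 at its far end.

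To say whether a response was weaker or stronger, genes were sorted by the mean of their 2 hypoxia ratios. This favours neither sign of the difference only where both ratios spread equally. More genes were past 2-fold under the elt-2 label (723 and 322) than under control RNAi (647 and 258). Among 667 genes whose mean ratio was 2-fold or more above normoxia, 40 had a weaker response under the elt-2 label and 75 a stronger one. Among 263 genes whose mean ratio was 2-fold or more below normoxia, 6 had a weaker response and 36 a stronger one. This balance depends on the sorting: by the control ratio alone, raised genes gave 76 weaker and 39 stronger responses, and lowered genes 17 and 17. The remaining counted genes, 38 with a higher and 103 with a lower difference, had a mean ratio within 2-fold. Over those 103 genes the median hypoxia ratio was 0.74 under control RNAi and -0.82 under the elt-2 label, above normoxia on one food and below it on the other. Over the 179 genes with a lower difference, the median hypoxia ratio was 0.81 under control RNAi and -0.82 under the elt-2 label. Over the genes with a higher difference it was 0.63 and 2.05. Since these sets were also picked by their difference, a gap between their medians was fixed in advance.

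Lysozymes are enzymes that break down bacterial cell walls and are made largely in the intestine. Of 16 lysozyme loci 8 were compared, their median difference was -1.14 (-0.61 with no filter on low values), and 4 (50%) were at -1 or less, beside 2.24% of all compared genes. lys-4 went from 29.04 to 155 RPKM under control RNAi and from 1.35 to 1.63 RPKM under labelled elt-2 RNAi. Both labelled elt-2 RNAi values were far below both control values, the control ratio of 2.38 had no counterpart there (0.16), and the difference was -2.22. lys-1 went from 470.3 to 908 RPKM under control RNAi and from 175 to 90.2 RPKM under labelled elt-2 RNAi, so it was higher in hypoxia on one food and lower on the other, with a difference of -1.90. lys-7 showed the same arrangement at 148, 192, 82.6 and 40.2 RPKM, in the order control normoxia, control hypoxia, labelled elt-2 RNAi normoxia and labelled elt-2 RNAi hypoxia, an order kept for all values below (difference -1.40). The invertebrate-type lysozyme ilys-5, the most abundant of the family here, was at 1293, 1519.6, 906 and 358 RPKM (difference -1.57).

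The remaining lysozymes were within 2-fold, with differences of -0.88 for lys-2, -0.61 for lys-8, -0.20 for lys-3 and 0.53 for ilys-4. lys-1, lys-2 and lys-3 are neighbours on chromosome V (10277802 to 10283419, ce10), and their differences were graded: lys-2, at 393, 948, 255 and 334 RPKM, still had a higher value in hypoxia on both foods. lys-3 was at 2.42, 27.4, 1.16 and 14.6 RPKM, so its large hypoxia ratio was nearly equal on both (3.05 and 2.85). Shares of reads between such related genes depend on how the authors assigned them, for which the sources used here give no rule. In whole-animal RNA, fewer intestinal cells and less RNA per intestinal cell cannot be told apart, here and for the other intestinal genes below.

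Digestive proteases of the intestinal lumen and lysosome had a median difference of -0.30 over 15 compared of 24 loci, with 3 lower and 1 higher. The counts of this list and of those below stand beside 2.24% lower and 1.49% higher over all compared genes. cpr-1, a cathepsin B-like cysteine protease, went from 27.3 to 209.9 RPKM under control RNAi and from 0.775 to 0.526 RPKM under labelled elt-2 RNAi. Its RNAi ratio (labelled elt-2 RNAi over control at the same oxygen level, log2 of RPKM + 1) was -3.996 in normoxia and -7.11 in hypoxia, and its difference of -3.11 was the lowest among the compared proteases with a pseudocount of 1 RPKM. The aspartyl protease asp-13 was at 141, 107, 18.1 and 1.40 RPKM, lowest in the labelled elt-2 RNAi hypoxia library (difference -2.59). The cpr-1 relative cpr-6 was at 906, 928, 108 and 58.8 RPKM, also far lower under the elt-2 label at both oxygen levels (difference -0.90). cpr-4 was at 47.4, 89.6, 121 and 96.1 RPKM, highest in normoxia under the elt-2 label (difference -1.24). cpr-3 was at 17.3, 57.3, 40.98 and 334 RPKM and was higher under the elt-2 label at both oxygen levels (difference 1.33).

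Saposin-like proteins, which include pore-forming antimicrobial members, had a median of -0.29 over 15 of 26 loci, 2 lower and none higher. spp-3 was at 1063, 3432, 547 and 836 RPKM, with a hypoxia ratio of 1.69 on the control food and 0.61 on the other (difference -1.08), and K02A11.4 (spp-25) had a difference of -1.305. spp-1 and spp-4 were already far lower in normoxia under the elt-2 label, with RNAi ratios of -4.37 and -3.94, and their differences of -0.81 and -0.95 did not reach 2-fold. Of 4 compared lysosomal lipases, enzymes that free fatty acids from stored fat, lipl-5 was at 350.5, 431, 138 and 77.4 RPKM (difference -1.12) and lipl-2 at 15.6, 12.3, 3.06 and 0.574 RPKM (difference -1.05, but only -0.28 with a pseudocount of 5 RPKM). lipl-1 (0.09) and lipl-7 (F01G10.7, -0.03) were near 0.

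C-type lectins gave more genes with a lower difference than any other list, by number though not by share. These secreted or membrane proteins carry a carbohydrate-binding fold, and many are regulated by infection. Of 256 loci 42 were compared, their median was -0.51, 13 were at -1 or less and 2 at 1 or more. The 13 lower lectins ranged from -3.71 to -1.03. clec-47 went from 2.82 to 69.8 RPKM under control RNAi and from 0.690 to 1.39 RPKM under labelled elt-2 RNAi, being high only in the control hypoxia library (difference -3.71). clec-5 was at 3.01, 21.7, 0.263 and 0.236 RPKM and also had its one high value there (difference -2.53). clec-186 had another shape, at 102, 49.2, 32.1 and 2.34 RPKM: lower in hypoxia on both foods, and further under the elt-2 label (difference -2.27). clec-221 stood against the family at 0.657, 0.495, 1.03 and 36.2 RPKM, high only in the labelled elt-2 RNAi hypoxia library, with a difference of 4.34, exceeded among all compared genes by F09C8.1 alone with a pseudocount of 1 RPKM. Across the list 14 lectins were 2-fold or more lower under the elt-2 label in normoxia and 20 in hypoxia, beside 262 and 346 of all 7992 compared genes.

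CUB-like genes and genes first described downstream of the insulin-pathway factor DAF-16 (dod), many of them intestinal and pathogen-responsive, were split, with a median of 0.21 over 16 of 24 loci, 3 lower and 3 higher. dod-3 went from 37.5 to 641 RPKM under control RNAi and from 53.2 to 155 RPKM under labelled elt-2 RNAi, higher in hypoxia on both foods but less so under the elt-2 label (difference -2.54). dod-24 was at 294, 363, 220.2 and 58.1 RPKM, low only in the labelled elt-2 RNAi hypoxia library (difference -2.21). dod-23 was at 563, 888, 206 and 739.6 RPKM (difference 1.18); here the normoxia value under the elt-2 label was the low one. F08G5.6 (irg-4) was at 10.9, 6.86, 1.25 and 2.45 RPKM (difference 1.22, and 0.68 with a pseudocount of 5 RPKM).

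The thaumatin-like genes thn-1 and thn-2, related to plant defence proteins, lie 2314 bp apart on chromosome IV (12380080 to 12383981, ce10, both on the plus strand) and had opposite differences. thn-1 went from 3.07 to 3.98 RPKM under control RNAi and from 41.3 to 245 RPKM under labelled elt-2 RNAi. It was higher under the elt-2 label at both oxygen levels, with RNAi ratios of 3.38 and 5.63, and its difference was 2.25. thn-2 went from 39.8 to 49.4 RPKM under control RNAi and from 107 to 29.04 RPKM under labelled elt-2 RNAi, highest in the labelled elt-2 RNAi normoxia library and lowest in the hypoxia library of the same food (difference -2.16). The hypoxia ratios of both genes were alike on the control food, at 0.29 and 0.31.

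**Figure D2:**
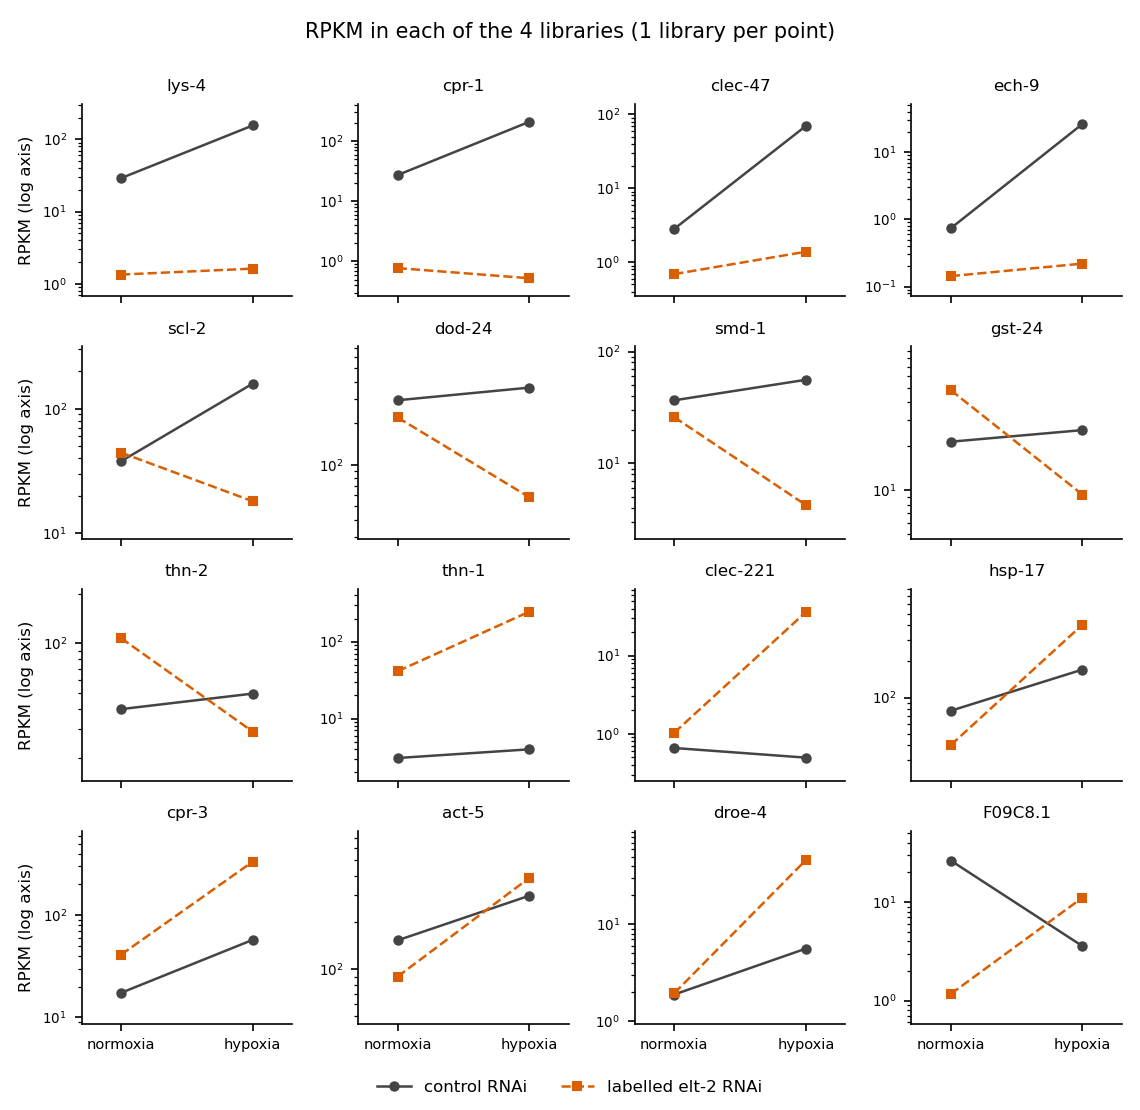
RPKM in normoxia and hypoxia (log axis, scale set per gene) for 16 named genes, 1 library per point, with control RNAi as grey circles and solid lines and labelled elt-2 RNAi as orange squares and dashed lines. The first 9 panels show genes with a lower difference, such as cpr-1 (from 27.3 to 209.9 RPKM under control RNAi and from 0.775 to 0.526 under the elt-2 label), and the last 7 panels genes with a higher one, such as thn-1 (from 41.3 to 245 RPKM under the elt-2 label).

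All 7 fatty acid desaturases had a difference below 0, with a median of -0.74, although only fat-4 passed 2-fold. These enzymes insert double bonds into fatty acids, use molecular oxygen to do so, and together make the polyunsaturated fatty acids of the worm. fat-4 went from 222 to 1015 RPKM under control RNAi and from 196 to 424 RPKM under labelled elt-2 RNAi, a hypoxia ratio of 2.18 against 1.11. fat-1 was at 449, 1603, 467 and 848 RPKM, fat-2 at 787, 3013, 788 and 2070.0 RPKM and fat-3 at 61.9, 578, 105 and 580.1 RPKM, each higher in hypoxia on both foods, with differences of -0.97, -0.54 and -0.74. The normoxia values of fat-1, fat-2 and fat-4 were close between foods, with RNAi ratios of 0.06, 0.00 and -0.19, so for these genes the gap lay in the hypoxia libraries. For fat-3 it lay in normoxia, where the value was higher under the elt-2 label, while its hypoxia values were close. Among the desaturases that act on saturated fatty acids, fat-6 was at 277, 1426, 165 and 646 RPKM (difference -0.40), whereas fat-5 (-0.25) and fat-7 (-0.98) were lower in hypoxia on both foods, and the fat-7 difference ranged from -2.11 with a pseudocount of 0.1 RPKM to -0.14 with 5. In the authors' deposited table of the control pair, fat-1, fat-2, fat-3, fat-4 and fat-6 were called significant, and in that of the elt-2 pair only fat-3 and fat-6 were, each table comparing 1 library with 1 library.

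For fatty acid activation and beta-oxidation the median was -0.18 over 37 of 59 loci, with 4 lower and none higher. ech-9, an enoyl-CoA hydratase family gene, had a difference of -3.88, the lowest of all compared genes with a pseudocount of 1 RPKM but not with 0.1 or 5, where it was -4.59 and -2.43. It went from 0.738 to 26.3 RPKM under control RNAi and from 0.143 to 0.219 RPKM under labelled elt-2 RNAi, and only the control hypoxia library was above 1 RPKM. Its neighbour ech-8, 1312 bp away on chromosome IV, was at 4.92, 10.2, 7.99 and 5.92 RPKM (difference -1.303, and -0.87 with a pseudocount of 5 RPKM). ech-7 was at 50.1, 169, 0.452 and 0.645 RPKM, all but missing under the elt-2 label (difference -1.56). acdh-1, an acyl-CoA dehydrogenase of short and branched chains, was lower in hypoxia on both foods at 155, 38.5, 82.6 and 5.97 RPKM (difference -1.60). Of 14 compared genes for proteins that bind fatty acids or retinol, lbp-7 (15.7, 23.7, 8.13 and 2.98 RPKM, difference -1.76) and far-3 (40.1, 5.08, 107 and 3.62 RPKM, difference -1.80) were lower, far-3 overlapping another locus. Fatty acid synthesis and elongation genes had a median of 0.12 and none of 14 past 2-fold.

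Iron and haem genes had a high median hypoxia ratio on both foods, which not every member shared, and individual members diverged between foods. The median hypoxia ratio of 10 compared genes was 2.51 under control RNAi and 1.85 under the elt-2 label, and the median difference was 0.09, with 3 higher and 2 lower. The ferritin genes, whose products store iron, went opposite ways. ftn-1, the intestinal ferritin, was at 3.80, 63.7, 0.0692 and 3.06 RPKM. Its difference of -1.83 depends on the pseudocount and was 0.19 with 0.1 RPKM, since its normoxia value under the elt-2 label was close to 0. ftn-2 was at 344, 579, 405 and 1396 RPKM (difference 1.03), the labelled elt-2 RNAi hypoxia library standing above the other 3. smf-3, an importer of divalent metals, was at 1.82, 25.4, 0.732 and 4.77 RPKM, high in control hypoxia (difference -1.49).

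hrg-1 and hrg-4, which transport haem, were 2-fold or more lower under the elt-2 label at both oxygen levels, at 21.6, 186, 5.95 and 59.2 RPKM and 14.7, 60.5, 2.59 and 14.1 RPKM, but their hypoxia ratios were nearly equal, with differences of 0.07 and 0.10 (-0.29 and -0.40 with a pseudocount of 5 RPKM). hrg-7 (C15C8.3), a secreted aspartyl protease homologue of haem signalling, was at 145, 1340.4, 23.8 and 513 RPKM (difference 1.18), and hrg-3 (F58E6.7), a secreted haem carrier, at 3.75, 59.8, 0.186 and 37.4 RPKM. The hrg-3 difference of 1.34 ranged from 3.07 with a pseudocount of 0.1 RPKM to 0.14 with 5. The others, hrg-6, fpn-1.1 and smf-1, had differences of 0.17, -0.20 and 0.04.

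Genes of the HIF-1 pathway and its known targets had a median of 0.12 over 13 of 15 loci, with 1 gene past 2-fold. fmo-2, a flavin-containing monooxygenase, went from 2.42 to 46.4 RPKM under control RNAi and from 0.625 to 5.46 RPKM under labelled elt-2 RNAi (difference -1.80). The next largest differences were 0.80 for cysl-2, a cysteine synthase homologue (76.5, 93.6, 42.9 and 92.5 RPKM), 0.54 for ethe-1 (C33A12.7), a mitochondrial sulfur dioxygenase, and 0.53 for the carbonic anhydrase cah-4 (30.3, 139, 27.6 and 184 RPKM). cah-4 was thus much higher in hypoxia on both foods.

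Detoxification families held members at both ends. Glutathione S-transferases, which attach glutathione to reactive compounds, had a median of -0.24 over 21 of 47 loci, with 5 lower and 2 higher. gst-4, widely used as a reporter of oxidative stress, was at 45.9, 12.1, 51.9 and 2.40 RPKM, lower in hypoxia on both foods and lowest under the elt-2 label (difference -2.12), and gst-10 was at 30.2, 7.89, 21.99 and 0.906 RPKM (difference -1.78, and -0.74 with a pseudocount of 5 RPKM). gst-24 was at 21.5, 25.8, 48.3 and 9.35 RPKM, highest in normoxia and lowest in hypoxia under the elt-2 label (difference -2.50). gst-38 ran against the family at 22.6, 8.77, 3.30 and 9.10 RPKM: on the control food it was lower in hypoxia, under the elt-2 label it was higher, and its difference was 2.50.

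UDP-glucuronosyltransferases, which attach sugars to small molecules, had a median of -0.24 over 30 of 66 loci, with 5 lower and 3 higher. ugt-22 was at 89.9, 117, 21.6 and 8.74 RPKM (difference -1.59) and ugt-31 at 14.6, 15.02, 14.9 and 5.38 RPKM (difference -1.35). ugt-12 (1.25) and ugt-21 (1.11) were higher, and with a pseudocount of 5 RPKM the values of ugt-31, ugt-12 and ugt-21 were -0.96, 0.93 and 0.54. Cytochrome P450 genes, monooxygenases of lipids and foreign compounds, had a median of -0.05 over 20 of 75 loci, with 3 lower and 2 higher. cyp-35A2 was at 91.8, 245, 15.2 and 17.7 RPKM, low in both labelled elt-2 RNAi libraries, with a hypoxia ratio of 1.41 on the control food and 0.21 on the other. cyp-33C8 was at 5.14, 18.1, 6.79 and 76.8 RPKM, highest in hypoxia under the elt-2 label (difference 1.68). cyp-34A9 had a difference of -2.03, and that of cyp-32B1, -1.93, was -0.33 with a pseudocount of 0.1 RPKM.

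Among metallothioneins and cadmium-responsive genes, 8 of 9 loci were compared, with a median of -0.12, 1 lower and 2 higher. The metallothionein mtl-2, a small metal-binding protein of the intestine, was at 529, 520.2, 9.01 and 3.04 RPKM. Its level was far lower under the elt-2 label at both oxygen levels, with RNAi ratios of -5.73 and -7.01, beside which its difference of -1.29 was small, and with a pseudocount of 5 RPKM it was -0.78. mtl-1 was at 188, 434, 39.8 and 113 RPKM (difference 0.28). The genes cdr-4, cdr-5, cdr-7 and cdr-6 follow one another on chromosome V (12407409 to 12413679, ce10, minus strand). cdr-4 went from 39.7 to 49.3 RPKM under control RNAi and from 107 to 419 RPKM under labelled elt-2 RNAi (difference 1.65) and cdr-5 was at 1.90, 8.58, 1.24 and 16.7 RPKM (difference 1.26, and 0.82 with a pseudocount of 5 RPKM). Their neighbours had differences of -0.33 and 0.10.

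Transthyretin-related genes, a large nematode family of secreted proteins, had a median of -0.38 over 35 of 58 loci, with 4 lower and 1 higher, and 27 of the 35 below 0. ttr-37 was at 10.8, 21.2, 23.1 and 4.25 RPKM, lowest in hypoxia under the elt-2 label (difference -3.10). ttr-46 was at 228, 372, 39.7 and 17.6 RPKM, low in both libraries of that label (difference -1.83), and ttr-41 had a difference of -1.13. ttr-23 stood apart at 9.997, 12.7, 5.05 and 38.2 RPKM (difference 2.38). Of 5 compared insulin-like peptides only ins-7, made by intestine and neurons, passed 2-fold, at 9.23, 69.6, 26.5 and 44.4 RPKM: its control ratio of 2.79 compared with 0.72 under the elt-2 label (difference -2.06).

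Cuticle collagens, the structural proteins of the body covering, had a median of -0.62 over 28 of 175 loci, and 26 of the 28 lay below 0, with 6 at -1 or less and 1 at 1 or more. Their median hypoxia ratio was -0.95 under control RNAi and -1.58 under the elt-2 label, below normoxia on both foods. col-93 was at 30.3, 11.41, 31.1 and 2.61 RPKM (difference -1.81) and col-124 at 56.7, 44.5, 78.7 and 22.04 RPKM (difference -1.45). col-42 (Y69H2.14) had a difference of -1.32, and col-81 was the exception at 14.2, 1.95, 5.33 and 2.17 RPKM (difference 1.37, and 0.94 with a pseudocount of 5 RPKM). Collagen genes resemble one another closely, so reads may be shared between them. The summed RPKM of 16 epidermis markers, the collagen gene col-19 among them, was 261, 273, 260.5 and 236 in the same order of libraries, none of the 8 compared markers passed 2-fold and their median was 0.04. Their part in the collagen values was not tested.

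Short secreted peptides showed no common direction. Of 56 nematode-specific peptide (nsp) loci 27 were compared, with a median of 0.34, 4 lower and 1 higher. nspc-19 was at 93.1, 90.3, 66.2 and 164 RPKM, highest in hypoxia under the elt-2 label (difference 1.34), whereas nspe-4 (Y38E10A.11), at 8.63, 13.7, 9.84 and 5.14 RPKM, was lowest there (difference -1.43). nspa-1 had a difference of -1.302 (-0.83 with a pseudocount of 5 RPKM), and the nspa genes are close copies. Of 36 fip and fipr loci, related to antifungal peptides, only 4 were compared, with differences from -1.78 for fip-6 to 1.201 for fip-2 (0.73 with a pseudocount of 5 RPKM). Epidermal antimicrobial peptides had a median of 0.01 over 15 loci, and of these only nlp-34 was counted, at 114, 71.2, 248 and 76.2 RPKM (difference -1.01, and -0.99 with a pseudocount of 5 RPKM). Of 27 ABC transporters, haf-7 alone was counted, at 6.21, 7.01, 8.42 and 32.5 RPKM (difference 1.68).

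Small heat shock proteins, chaperones that hold unfolding proteins, had a median of 0.85 over 9 of 15 loci (0.47 with no filter on low values), 8 of the 9 lay above 0, and 3 (33.3%) were at 1 or more, beside 1.49% of all compared genes. Of these 3, only hsp-17 (2.09) stayed past 2-fold with a pseudocount of 5 RPKM. The counted hsp-16.1 locus was then at 0.99 and hsp-12.3 at 0.53. hsp-17 went from 77.6 to 171 RPKM under control RNAi and from 40.2 to 405 RPKM under labelled elt-2 RNAi (difference 2.17), although its locus overlaps that of F52E1.14, whose difference was -1.34. The 4 compared hsp-16 loci that lie together on chromosome V (9087220 to 9090633, ce10) are arranged as 2 inverted copies of a gene pair. The pair's hsp-16.1 loci were at 41.3, 111, 41.6 and 227 RPKM and at 43.1, 111, 48.1 and 224 RPKM, with differences of 1.01 and 0.85. hsp-16.49 (0.96) and hsp-16.48 (0.73) were alike. In each of these the labelled elt-2 RNAi hypoxia library was the highest and the normoxia libraries were close between foods, but since the copies are nearly identical the 4 values are not independent. hsp-16.2, elsewhere on the chromosome, had a difference of 0.47. hsp-12.3 was at 4.70, 108, 1.73 and 108 RPKM, equal in hypoxia on both foods and lower in normoxia under the elt-2 label, so its difference of 1.07 came from a low value and was 0.53 with a pseudocount of 5 RPKM. sip-1 (0.31) and hsp-43 (-0.44) were within 2-fold. Cytosolic chaperones of the HSP70 and HSP90 families had none of 12 past 2-fold and a median of 0.11.

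Chaperones of the endoplasmic reticulum had a median of 0.39 over all 17 loci, 16 above 0 and none past 2-fold. hsp-3, a BiP homologue, was at 193, 133, 150.3 and 205 RPKM (difference 0.99): it was lower in hypoxia on the control food and higher in hypoxia under the elt-2 label. The protein disulfide isomerases pdi-6 (tag-320) at 139, 85.04, 107 and 114 RPKM and pdi-2 at 259.6, 195, 209.8 and 266 RPKM, and the calreticulin gene crt-1 at 647, 623, 595 and 884 RPKM, had differences of 0.79, 0.75 and 0.63. All 3 vitellogenins that could be compared, yolk proteins made in the intestine, had a positive difference. vit-3 was at 3871, 1548, 1997 and 1762 RPKM (difference 1.14), vit-4 had a difference of 0.99 and vit-1 of 0.67. Their ratio was below normoxia on the control food and nearer to 0 under the elt-2 label, where the normoxia values were lower. vit-3 and vit-4 are near-identical copies, and the other 3 vitellogenins had an excluded status.

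Of 19 compared intestine markers 13 lay above 0, beside 4383 of all 7992 compared genes. Their median was 0.32, 4 were at 1 or more and 1 at -1 or less. The higher ones were structural or transport genes of the brush border: pept-1 (opt-2), a peptide transporter, was at 15.7, 15.1, 13.1 and 30.03 RPKM; ifd-2, an intermediate filament, at 4.88, 20.3, 5.90 and 55.1 RPKM; and act-5, the actin of the microvilli, at 154, 297, 89.9 and 386 RPKM. Their differences were 1.19, 1.17 and 1.14, and in each the labelled elt-2 RNAi hypoxia library was the highest of the 4. vha-6, the intestinal subunit of the proton pump, was at 89.7, 137, 61.0 and 43.5 RPKM and had the only lower difference (-1.08). The remaining higher marker, the intermediate filament gene ifb-2 (1.05), was named after its value was seen. The summed RPKM of 21 intestine markers was 2399 and 4058 under control RNAi and 939.5 and 1773 under the elt-2 label, higher in hypoxia on both foods and lower under the elt-2 label at both oxygen levels. Such a sum is carried by its abundant members, and cpr-6 alone was at 906, 928, 108 and 58.8 RPKM. Of the 19 compared markers, 4 were 2-fold or more lower under the elt-2 label in normoxia, and 4 in hypoxia. Over all 7992 compared genes these counts were 262 and 346. The gut esterase gene ges-1, which defines the tissue, was at 18.3, 21.8, 6.65 and 12.1 RPKM. The part of these lower marker values in the results for intestinal genes was not tested.

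Of the body wall muscle markers none of 14 passed 2-fold and the median was close to 0, and the germline and oocyte markers, whose sums were 16811, 11651, 18246 and 13705 RPKM, had none of 31 past 2-fold and a median of 0.07. The sums of 14 embryo marker loci were 558, 307, 429 and 234 RPKM, with none of the 6 compared past 2-fold and a median of 0.06. Of 8 neuron markers, which are detected sparsely in whole worms, all but one lay above 0 and their median was 0.40. The sums over all 30 neuron marker loci were 368, 393, 363 and 502 RPKM, highest in hypoxia under the elt-2 label. unc-18, a syntaxin-binding protein, was the only one counted, at 20.9, 21.02, 33.9 and 108 RPKM (difference 1.63). This gene made up most of the gap between foods in the hypoxia sums. No coelomocyte marker and 1 sperm marker reached the minimum level, and the pharyngeal myosin gene myo-2 (0.125 to 0.247 RPKM) and the coelomocyte gene unc-122 (0.334 to 0.408 RPKM) were near 0 in all 4 libraries.

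**Figure D3:**
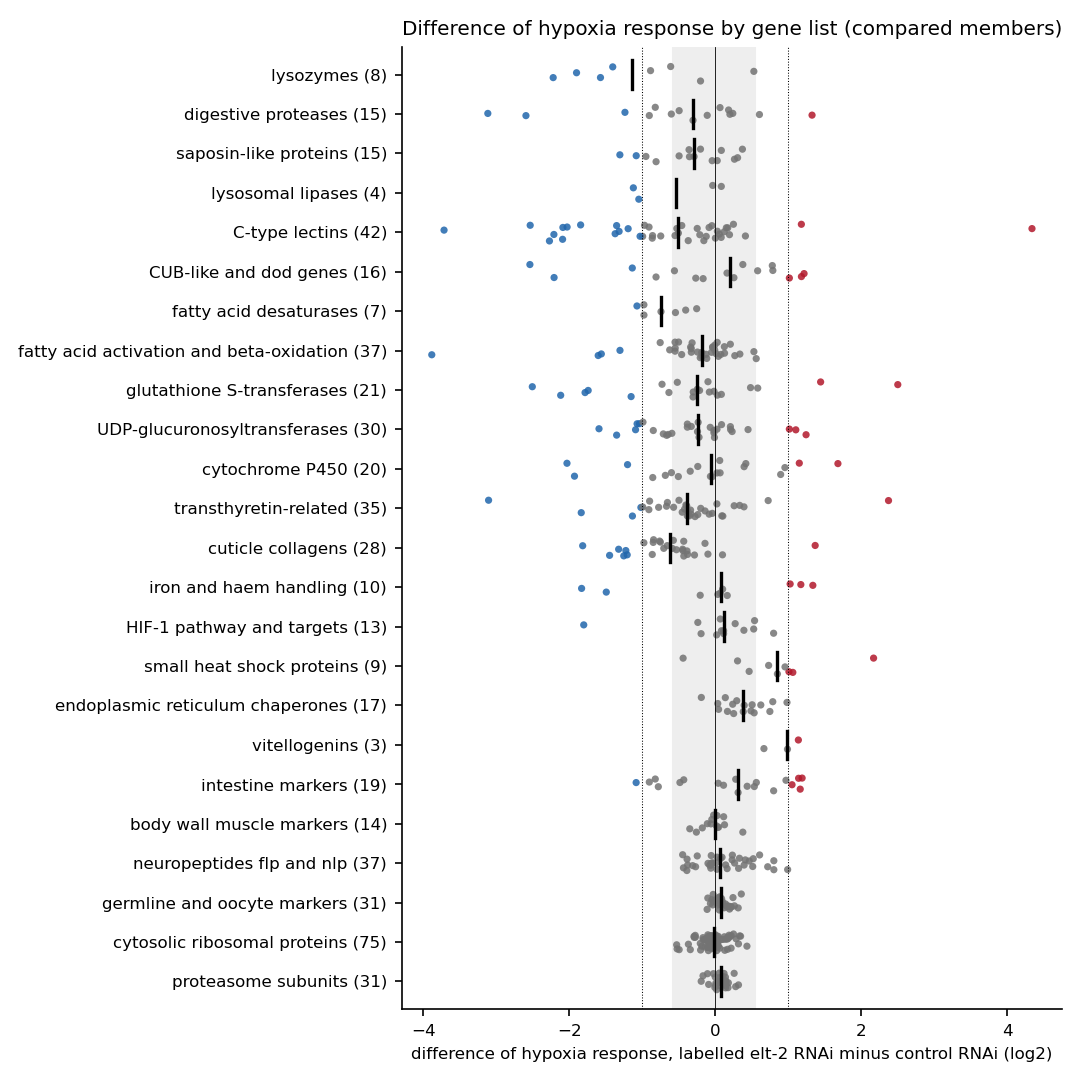
Difference of hypoxia response (log2, labelled elt-2 RNAi minus control RNAi) for the compared members of 24 gene lists, 1 point per gene, with the number of genes in brackets and a black bar at each list's median. Dotted lines mark 2-fold, blue and red points lie past it, and the grey band holds 90% of all compared genes. Lysozymes have their median at -1.14 and small heat shock proteins at 0.85, while ribosomal proteins and proteasome subunits lie within the band.

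Genes of the basic cell machinery had similar ratios on both foods. Cytosolic ribosomal proteins had differences from -0.53 to 0.44 over 75 genes (median -0.02), while their hypoxia ratio was positive, with medians of 0.54 and 0.50 on the 2 foods. Proteasome subunits lay between -0.19 and 0.32 over 31 genes, and genes of DNA replication and the cell cycle between -0.05 and 0.38 over 31, with medians of 0.08 in each. Glycolysis (median -0.02 over 16 genes), the citric acid cycle (-0.06 over 22), the respiratory chain and ATP synthase (-0.07 over 39) and superoxide dismutases, catalases and peroxiredoxins (-0.18 over 9) had none past 2-fold. The same held for 51 nuclear hormone receptors, 37 neuropeptides and 29 abu and pqn genes, and 1 of 69 F-box genes was counted (fbxa-51, -1.11, and -0.67 with a pseudocount of 5 RPKM).

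The genes farthest from equality included many outside these families. Among the 15 lowest, Y40B10A.6 (comt-4), a predicted methyltransferase, went from 7.604 to 256 RPKM under control RNAi and from 3.43 to 13.6 RPKM under labelled elt-2 RNAi (difference -3.18), so it was higher in hypoxia on both foods and much more so on the control food. smd-1, the decarboxylase that feeds polyamine synthesis, was at 36.7, 56.0, 25.9 and 4.25 RPKM (difference -2.96), close between foods in normoxia and low only in the labelled elt-2 RNAi hypoxia library. scl-2, a secreted protein of the SCP family, was at 37.8, 159, 44.4 and 18.1 RPKM, close between foods in normoxia (difference -3.30). Y43F8A.1 (nssp-72) was at 1.64, 3.51, 15.3 and 1.79 RPKM and Y38E10A.15 (nspe-7) at 0.625, 30.7, 3.46 and 12.2 RPKM, with differences of -3.32 and -2.72. In the first of these a high normoxia value under the elt-2 label carried the difference.

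Among the 15 highest, Y41C4A.11 was at 1.597, 4.42, 1.38 and 37.9 RPKM and F58E10.7 (droe-4) at 1.87, 5.599, 1.93 and 46.5 RPKM, both close between foods in normoxia and high in the labelled elt-2 RNAi hypoxia library, with differences of 2.97 and 2.82. phg-1 was at 0.159, 0.159, 2.46 and 20.7 RPKM (difference 2.65), below 1 RPKM on the control food. F15B9.6 went from 2.40 to 5.94 RPKM under control RNAi and from 6.88 to 76.2 RPKM under labelled elt-2 RNAi (difference 2.26) and K10D11.5 from 6.57 to 13.3 RPKM under control RNAi and from 10.2 to 99.4 RPKM under labelled elt-2 RNAi (difference 2.25). Each was higher under the elt-2 label at both oxygen levels. K11H12.4 and ZK896.4 were at 12.85, 13.5, 4.05 and 24.8 RPKM and 6.11, 9.27, 3.89 and 29.99 RPKM (differences 2.29 and 2.13). Of the 30 genes at both ends, the authors' deposited table of the control pair called 3 significant and that of the elt-2 pair 4.

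Some list members complete the counts above or have a known function, and are named here after their values were seen. Lower differences included -2.21 for clec-52 and -2.09 for clec-66 among the lectins, -1.15 for gst-20 among the transferases, and -1.09, -1.07 and -1.04 for ugt-39, ugt-48 and ugt-46. Higher ones were 1.18 for clec-209, 1.45 for gst-22, 1.02 for ugt-2 and 1.15 for cyp-36A1. The alcohol dehydrogenase family gene sodh-1 was at 19.3, 102, 5.53 and 8.93 RPKM (difference -1.74). The omega-class transferase gsto-1 was at 11.5, 99.8, 0.263 and 2.05 RPKM (difference -1.74). daf-36, an oxygenase of the steroid hormone pathway, was at 7.03, 30.2, 2.91 and 5.89 RPKM (difference -1.14). In sodh-1, gsto-1 and daf-36 the control hypoxia library held the highest value.

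The same difference can be read as the RNAi ratio in hypoxia minus the RNAi ratio in normoxia, which shows where the foods parted. Of the 179 genes with a lower difference, 80 were within 2-fold between foods in normoxia and 2-fold or more lower under the elt-2 label in hypoxia. Another 51 were already 2-fold or more lower in normoxia and lower still in hypoxia, as cpr-1, lys-4 and clec-5 were, and 18 were higher in normoxia and within 2-fold in hypoxia, as thn-2 and cyp-34A9 were. Of the genes with a higher difference, 48 were within 2-fold in normoxia and higher in hypoxia, as clec-221 was, 21 were lower in normoxia and within 2-fold in hypoxia, and 12 were lower at both oxygen levels. Over all 7992 compared genes, 131 were within 2-fold in normoxia and lower in hypoxia, 212 were lower at both oxygen levels and 29 went from higher to within 2-fold. A further 87 went from within 2-fold to higher and 48 from lower to within 2-fold. The median RNAi ratio of the lower set was -0.29 in normoxia and -1.85 in hypoxia, and that of the higher set -0.49 and 0.98, beside 0.06 and 0.08 over all compared genes. As both sets were picked by this same difference, a gap between their normoxia and hypoxia medians was fixed in advance. The authors' deposited table of the control pair called 13 of the 179 genes significant and that of the elt-2 pair 9, and for the genes with a higher difference these counts were 2 and 34. Of all 7992 compared genes the tables called 43 and 82. These calls rest on the same libraries that picked the sets, so they are not independent of the difference.

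**Figure D4:**
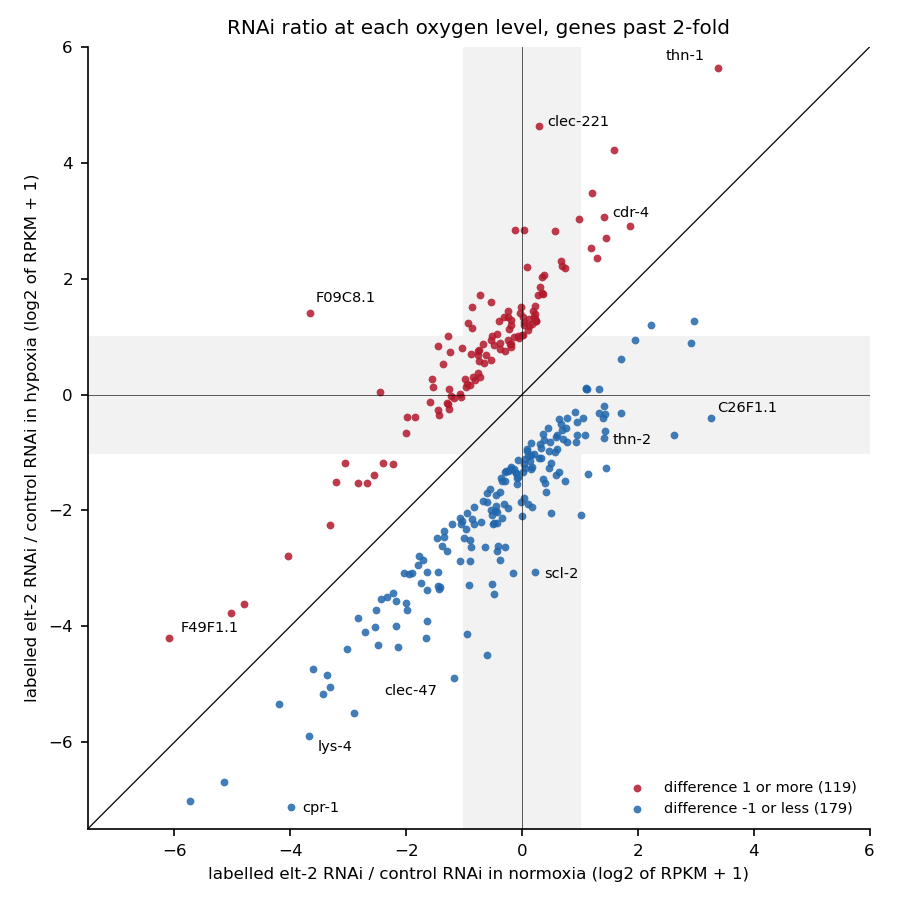
RNAi ratio (log2 of RPKM + 1, labelled elt-2 RNAi over control RNAi) in normoxia (horizontal axis) and hypoxia (vertical axis) for the 298 genes past a 2-fold difference, 1 point per gene. The diagonal marks equal ratios, the grey bands a ratio within 2-fold, and points below the diagonal have a lower difference. cpr-1 lies at -3.996 and -7.11, low at both oxygen levels, while scl-2 lies at 0.23 and -3.07 and clec-221 at 0.29 and 4.64.

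The counted genes differed from all compared genes in length, level and position, without a test. The median genomic span was 1516 bp for the lower and 1693 bp for the higher set, beside 2344 bp for all compared genes, and the median of the mean level was 22.8 and 23.7 RPKM beside 42.7. Chromosome V held 16.8% of the compared genes but 34.1% of the lower and 36.1% of the higher set, and chromosome I held 18.8%, 4.47% and 7.56%. Within 10 kb of one another lay 22 pairs of counted genes, 18 with differences of the same sign. No such count was made over all compared genes, so these numbers have no background. Among the pairs of the same sign were gst-20 and gst-24, clec-51 and clec-52, col-93 and col-94, ech-8 and ech-9, and cdr-4 and cdr-5. Pairs of loci that share the name F45D11.14 were also among them. The other 4 pairs had opposite signs, thn-1 and thn-2 among them. Neighbours that arose by duplication can share reads, and loci that overlap can too, and the sources used here do not give the treatment of strand. Of the counted genes, 23 of the lower and 11 of the higher set overlap another locus, beside 1198 of all 7992.

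Of all genes compared, 9 (0.113%) went past 2-fold in opposite directions on the 2 foods. F09C8.1 had the highest difference of all with a pseudocount of 1 RPKM: it went from 26.4 to 3.57 RPKM under control RNAi and from 1.17 to 11.104 RPKM under labelled elt-2 RNAi, a hypoxia ratio of -2.58 against 2.48. Y105C5B.15, at 136, 59.6, 81.9 and 199 RPKM, and F22E5.1, at 15.9, 6.77, 6.02 and 14.6 RPKM, had the same arrangement as F09C8.1 and gst-38, being lower in hypoxia on the control food and higher on the other. The remaining 5 were higher in hypoxia on the control food and lower on the other. They were scl-2, R09F10.1 at 25.5, 61.9, 17.4 and 5.49 RPKM, F37C12.10 at 4.85, 10.8, 4.27 and 0.405 RPKM, H20E11.3 at 7.02, 20.1, 5.20 and 1.92 RPKM and C26F1.1 at 0.900, 5.43, 17.3 and 3.89 RPKM. In C26F1.1, whose locus overlaps another, the labelled elt-2 RNAi normoxia library was the high one, while in R09F10.1, F37C12.10 and H20E11.3 the hypoxia library of that label was the low one.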

How the data were processed

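RNA of whole adult worms was sequenced in 4 libraries, 1 per group, in 1 lane, per the labels' protocols, and the titles gave the groups. The authors deposited RPKM per gene, per the file headers, in 6 tables of library pairs, in which 0 values of a library differed between tables. The deposited tables also hold the authors' p-value, its FDR adjustment and a significance call per gene for 1 library against 1 library, per the file headers. TopHat2 2.0.8b, Cufflinks 2.1.1 and ce10 are named in the submitters' processing notes. No annotation, read filter, strand setting or read total is stated in the sources used here, so depth is unknown and no counting interval is given.

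The log2 ratios and their difference were computed in Python 3.11.15 (pandas 2.3.3, numpy 2.4.6) on RPKM + 1, which understates changes of low genes, and the calculation was tested on simulated data. Coordinates are those of the files on ce10, counted from 1. Current symbols came from name tables of WBcel235, with 14777 loci matched by accession and 7812 of the 7992 compared genes given a current symbol. Members, gene lists (56) and alternatives were chosen with earlier results of these data known. The text names elt-2, the 15 highest and 15 lowest differences, genes with opposite responses, and up to 4 compared members of each list with the largest absolute difference (all, where 10 or fewer were compared). Sequence motifs in promoters were not analysed here. In all, 12 processing alternatives were computed.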

Additional observations from a re-analysis of the deposited data

Results flagged for a closer look

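These 9 genes had hypoxia ratios past 2-fold in opposite directions on the 2 foods, 1 library per group, and the difference itself was not tested. A higher hypoxia ratio under the elt-2 label was seen for F09C8.1 (difference 5.06), gst-38 (2.50), Y105C5B.15 (2.45) and F22E5.1 (2.28). A lower one was seen for C26F1.1 (-3.67), scl-2 (-3.30), F37C12.10 (-2.92), R09F10.1 (-2.75) and H20E11.3 (-2.48). With a pseudocount of 5 RPKM 4 genes had opposite responses past 2-fold, and with a mean of at least 20 RPKM 3. The lowest library was at 59.6 RPKM for Y105C5B.15, 18.1 for scl-2, 6.02 for F22E5.1 and 5.49 for R09F10.1, and below 5 RPKM for the other 5 genes.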

How the results depend on the processing

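No paired analysis was possible because each group holds 1 library, and for the same reason no replicate could be left out. The promoter motif shares planned for the counted genes were not run, as promoters were not used here. Centring on the median gene, upper quartile scaling (each shifts the median gene by about -0.03), status OK alone, loci naming several genes and libraries at 0 left all gene counts and the recomputed list medians within the tolerance (1.5 times for counts, 0.30 for log2 values); the causes of the changes below were not tested. With a pseudocount of 5 RPKM, 78 genes were higher, 46 raised and 18 lowered genes had a stronger response, 4 were opposite, and the lysosomal lipase median was -0.15. With a mean of at least 1 RPKM, 189 genes were higher and 306 lower, 11 lowered genes were weaker, 81 and 208 genes of neither class were higher and lower, and the medians of lysosomal lipases and small heat shock proteins were -0.92 and 0.52. With a mean of at least 20, 64 were higher and 93 lower, raised genes gave 18 weaker and 47 stronger, lowered genes 1 and 20, neither class 16 and 55, 3 were opposite, and lysozymes and lysosomal lipases had medians of -1.49 and -1.12. With no filter, 269 were higher and 397 lower, 73 raised and 23 lowered genes were weaker, neither class gave 138 and 277, 14 were opposite, and medians were -0.61 for lysozymes, -0.060 for lectins, -0.072 for lysosomal lipases, 0.47 for small heat shock proteins, -0.062 for collagens and, reversed, 0.025 for fip peptides. Past 4-fold lay 18 and 33 genes. Sorted by the control ratio alone, raised genes gave 76 weaker and 39 stronger, lowered genes 17 and 17, and 63 genes of neither class were higher. The ftn-1 difference reversed to 0.19 with a pseudocount of 0.1 RPKM. Of 95 named genes past 2-fold, 93 stayed so with 0.1 RPKM, 77 with 5 RPKM and 94 with upper quartile scaling (hsp-16.1 at 0.98 being the exception). Low levels limit these values, since 28 of the 179 lower and 6 of the higher genes had a library below 1 RPKM.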

Other observations

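The 16 loci left out for a library at 0 but averaging 5 RPKM or more held 3 further members of the CUB-like and dod list, all nearly absent under the elt-2 label at both oxygen levels. dod-21 was at 55.4 and 14.8 RPKM in control normoxia and hypoxia, and was listed at 0 and at 0.127 RPKM under the elt-2 label. cld-1 (C32H11.9) was at 55.6 and 11.33 RPKM on the control food, then at 0.150 RPKM and listed at 0. C17H12.6 was at 28.6 and 12.62 RPKM, then at 0.529 RPKM and listed at 0. All 3 were lower in hypoxia than in normoxia on the control food. The cytochrome P450 gene cyp-35A4, at 7.47 and 16.7 RPKM on the control food, was listed at 0 and at 0.0888 RPKM under the elt-2 label. F46A8.7 was at 61.1 and 340.1 RPKM on the control food, listed at 0 in normoxia and at 950.3 RPKM in hypoxia under the elt-2 label. C36A4.10 was at 25.3 RPKM in control hypoxia and listed at 0 in the other 3 libraries. An exact 0 can be a failed estimate, and no ratio was computed for these loci.

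The vitellogenins vit-2, vit-5 and vit-6 were listed at 3159, 3176 and 4921 RPKM under the elt-2 label in normoxia and at 0 in the other 3, with a status that removed them from the comparison. The compared members of the family had values in all 4 libraries.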
